A study of Mus musculus with 8 samples.

Results

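The 39 genes described here act in G2 phase and mitosis and were taken by symbol. Their measured values did not enter the rule, but earlier results of these data were known when the genes were chosen. All 39 had a row in the authors' normalised table of 13751 genes and in the count files of 57010 genes, and all 39 were among the 13378 genes that passed the filter on low counts. RNA was sequenced in bulk from naive CD4 T cells that had been sorted from peripheral lymph nodes of wild-type C57BL/6 mice and then activated for 20 h. Coated antibodies to CD3, part of the T cell receptor complex, and to CD28, a costimulatory receptor, gave the activation (4 µg/mL each). In the 4 FAC cultures the medium was supplemented with iron, which the labels call FAC, and in the 4 Ctrl cultures it was not. The dose of iron, any vehicle in the Ctrl cultures, the age and sex of the mice, and whether a mouse number stands for 1 animal or a pool are not given in the sources used here. Mouse numbers 1 to 4 each name 1 FAC and 1 Ctrl culture, and the comparison addresses how iron acts on T cell responses.

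A dividing cell copies its DNA in S phase, passes through G2 and separates the copies in mitosis. Cyclin A and cyclin B proteins switch on the kinase CDK1 to start mitosis, the kinetochore joins each chromosome to the spindle, the spindle checkpoint holds the cell until all are joined, and the anaphase promoting complex then has cyclin B destroyed. Many, but not all, of the genes for these proteins are transcribed mostly in G2 and M phase. Naive CD4 T cells rest until they are activated, and then enter the cell cycle before they divide. In bulk RNA, fewer cells of a phase or type and less RNA per cell cannot be told apart, and cell cycle phase was not measured.

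Library totals ran from 25410267 to 32368377 counts in FAC libraries and from 25478716 to 37350609 counts in Ctrl libraries. The 7 T cell markers checked summed to 2479 to 2543 TPM (a level per transcript length, scaled to a fixed total per library) in FAC libraries and to 2323 to 2385 TPM in Ctrl libraries. These ranges do not overlap, and 1 of the 7 (Cd5) passed the test described further on. The 5 B cell markers summed to at most 0.40 TPM in FAC and 0.43 TPM in Ctrl libraries, and the 3 NK cell markers to at most 0.14 TPM in FAC and 0.14 TPM in Ctrl libraries. The 6 myeloid markers summed to 2.95 to 5.06 TPM in FAC and 2.36 to 3.13 TPM in Ctrl libraries, most of it Cd68, and the 2 CD8 T cell markers to 6.60 to 9.55 TPM in FAC and 8.36 to 10.95 TPM in Ctrl libraries. The 3 erythroid markers summed to at most 0.56 TPM in FAC libraries and to at most 8.15 TPM in Ctrl libraries, that value being from mouse 3. Lyz2 and Ncr1, which mark myeloid and NK cells, were at 0 counts in every one of the 8 libraries (a count of 0 allows up to 3). The part of other cells in the results was not tested.

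The mitosis genes were expressed at low to moderate levels in both groups. Mean TPM over the 8 libraries ran from 0.694 for Ccnb2 to 95.7 for Cks2, with a median of 6.97 over the 39 genes, beside 13.5 over all tested genes. Of the 39, 13 were above 10 TPM and 6 were under 2 TPM. Cks2, which encodes a small subunit of cyclin-dependent kinases, stood first at 97.7 ± 4.48 TPM in FAC and 93.7 ± 4.79 TPM in Ctrl libraries (SD, n = 4 in each group here and below). Hjurp, the chaperone that loads the centromeric histone CENP-A, was next at 63.7 ± 4.65 TPM in FAC and 47.7 ± 6.48 TPM in Ctrl libraries. Top2a, the DNA topoisomerase that untangles chromosomes, had 47.6 ± 9.06 TPM in FAC and 51.6 ± 8.55 TPM in Ctrl libraries. Cdk1, the kinase that drives mitosis, had 46.1 ± 6.05 TPM in FAC and 51.3 ± 12.9 TPM in Ctrl libraries. Top2a and Cdk1 lay within their spread of each other in both groups, and Hjurp within their spread in Ctrl libraries. The fifth gene in order, Cdca8 (a subunit of the chromosomal passenger complex), was clearly lower at 22.3 ± 2.92 TPM in FAC and 21.2 ± 3.99 TPM in Ctrl libraries. Cks2 and Hjurp together made up 24.4% to 33.8% of the summed TPM of the 39 genes in a library.

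**Figure D1:**
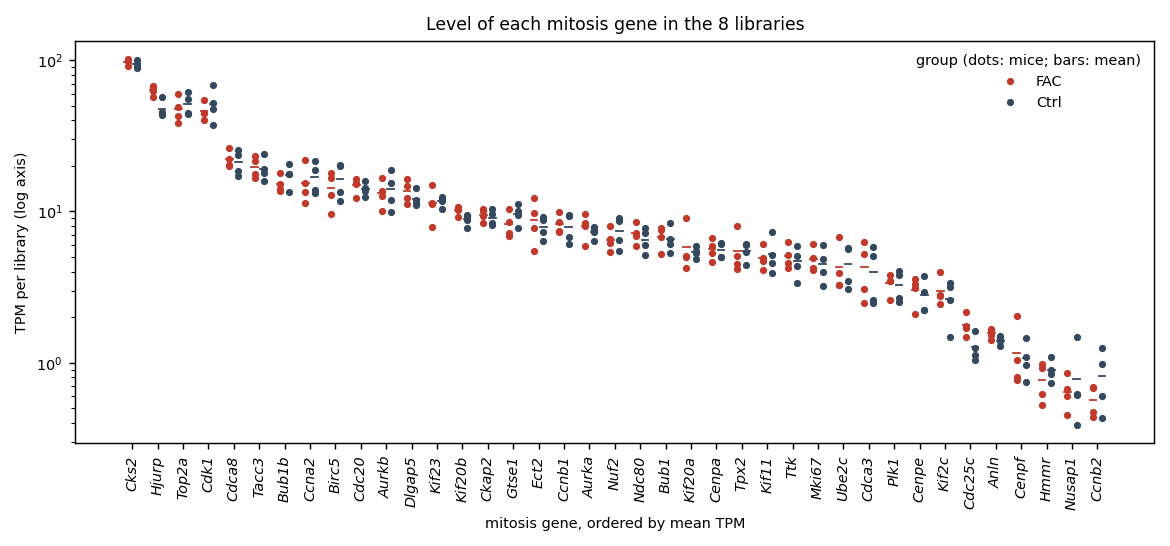
TPM of each of the 39 mitosis genes on a log axis, in order of mean TPM, with 1 dot per library and a bar at each group's mean; FAC libraries stand left of Ctrl libraries. Cks2 leads at a mean of 95.7 TPM and Ccnb2 is lowest at 0.694 TPM, and the dots of the groups overlap for most genes.

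At the low end, Ccnb2, a B-type cyclin, had 0.570 ± 0.133 TPM in FAC and 0.818 ± 0.374 TPM in Ctrl libraries. Nusap1, which encodes a spindle-binding protein, had 0.642 ± 0.166 TPM in FAC and 0.777 ± 0.487 TPM in Ctrl libraries. Hmmr, a gene of spindle assembly, had 0.765 ± 0.223 TPM in FAC and 0.890 ± 0.155 TPM in Ctrl libraries. These 3 lowest genes are not separated from each other by more than their spread. Mki67, the proliferation marker that encodes a coat protein of mitotic chromosomes, stood at 4.83 ± 0.906 TPM in FAC and 4.50 ± 1.18 TPM in Ctrl libraries, place 28 in the order.

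Promoters of mitotic genes are known to carry the cell cycle genes homology region (CHR, letters TTTGAA), through which DREAM and MuvB complexes act, and CCAAT boxes bound by NF-Y. Both motifs were searched on both strands in a RefSeq promoter table (build GRCm38.p6, whereas the counts rest on GRCm39), in which a promoter spans 250 bases before to 50 bases after a start site. The table held 35 promoters of 33 of the 39 genes, and Aurkb, Ccna2, Cdc25c, Dlgap5, Kif20a and Tpx2 were not searched. TTTGAA stood in 25 of the 35 (71.4%), beside 17.9% of all 32851 promoters, and CCAAT in 27 of the 35 (77.1%), beside 37.4% of all. Within 50 bases of the start, TTTGAA stood in 22 of the 35 (62.9%), beside 4.94% of all. A CHR and a CCAAT match overlapped 1 time in the 35. A match is a description of letters and not a bound site. Hjurp passed the test between FAC and Ctrl described further on, and Cdk1, Top2a and Mki67 passed that for differences among mice. Not every alternative kept these results, as given there. The promoters of these genes and of Cks2, the most abundant gene, are the 5 shown. Each runs 5′ to 3′ on its gene's strand from 150 bases before to 30 bases after the start site, with the letters of both motifs, found on either strand, in capitals.
Hjurp: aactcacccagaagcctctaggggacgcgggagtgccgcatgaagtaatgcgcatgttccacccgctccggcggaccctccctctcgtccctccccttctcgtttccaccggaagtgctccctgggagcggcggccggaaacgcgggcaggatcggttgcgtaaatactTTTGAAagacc
Cdk1: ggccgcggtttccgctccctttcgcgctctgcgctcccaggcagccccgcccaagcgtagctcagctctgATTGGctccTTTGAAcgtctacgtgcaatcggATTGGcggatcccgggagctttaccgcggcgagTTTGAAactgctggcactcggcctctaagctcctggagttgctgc
Top2a: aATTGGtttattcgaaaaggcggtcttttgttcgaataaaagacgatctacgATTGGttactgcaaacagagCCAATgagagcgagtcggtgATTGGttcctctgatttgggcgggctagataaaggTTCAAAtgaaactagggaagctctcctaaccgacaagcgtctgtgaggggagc
Mki67: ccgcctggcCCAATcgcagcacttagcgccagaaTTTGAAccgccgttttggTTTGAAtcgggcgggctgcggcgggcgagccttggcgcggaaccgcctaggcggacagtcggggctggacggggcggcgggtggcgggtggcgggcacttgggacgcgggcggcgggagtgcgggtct
Cks2: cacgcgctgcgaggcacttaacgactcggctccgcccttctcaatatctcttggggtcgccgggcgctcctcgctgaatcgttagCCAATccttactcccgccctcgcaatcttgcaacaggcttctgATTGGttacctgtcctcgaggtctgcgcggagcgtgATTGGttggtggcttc
They lie at chr1:88277550-88277729 on the minus strand for Hjurp, chr10:69352883-69353062 on the minus strand for Cdk1, chr11:99024160-99024339 on the minus strand for Top2a, chr7:135716350-135716529 on the minus strand for Mki67 and chr13:51645082-51645261 on the plus strand for Cks2. In these windows Cdk1 and Mki67 each hold 2 CHR matches, Hjurp and Top2a hold 1 each, and Cks2 holds 0. CCAAT matches number 4 in Top2a, 3 in Cks2, 2 in Cdk1, 1 in Mki67 and 0 in Hjurp.

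With FAC, 1 of the 39 mitosis genes rose (Hjurp), 0 fell, and 38 did not pass the test. The test was edgeR's quasi-likelihood test on counts across all tested genes, with calls made at a p under 0.05 after Benjamini-Hochberg adjustment, and it called 3.27% of all tested genes (2.18% higher and 1.10% lower). The share of the mitosis genes called, 2.56%, is near that background. Without adjustment 2 of the 39 had an edgeR p under 0.05 (Hjurp and Ccnb1), beside 18.4% of all tested genes. With the mouse as a block, edgeR called 6.87% of all tested genes and again Hjurp alone among the 39. Without adjustment, 5 of the 39 (12.8%) had an edgeR p under 0.05 in that block fit, beside 23.6% of all tested genes. Of these, 4 were lower in FAC and 1 was higher. The 39 log2 changes ran from -0.53 to 0.34 with a median of -0.05, beside a median of -0.001 over all tested genes, and 25 were negative and 14 positive. That median changed sign with the scale: it was 0.02 with the effective transcript length as an offset and 0.05 on log2(TPM + 1). The 95% interval of the change lay within 0.5 of 0 on the log2 scale for 27 of the 39 genes and within 1 of 0 for 38, the exception being Ccnb2. These intervals, and those below unless stated, come from the fit with group as the only term, in which spread among mice counts as error. The interval of Cdk1 was -0.432 to 0.195 in this fit and -0.222 to 0.006 with the mouse as a block. For Ccnb2 it was -1.322 to 0.265 and -1.276 to 0.347, so the block did not narrow every interval.

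**Figure D2:**
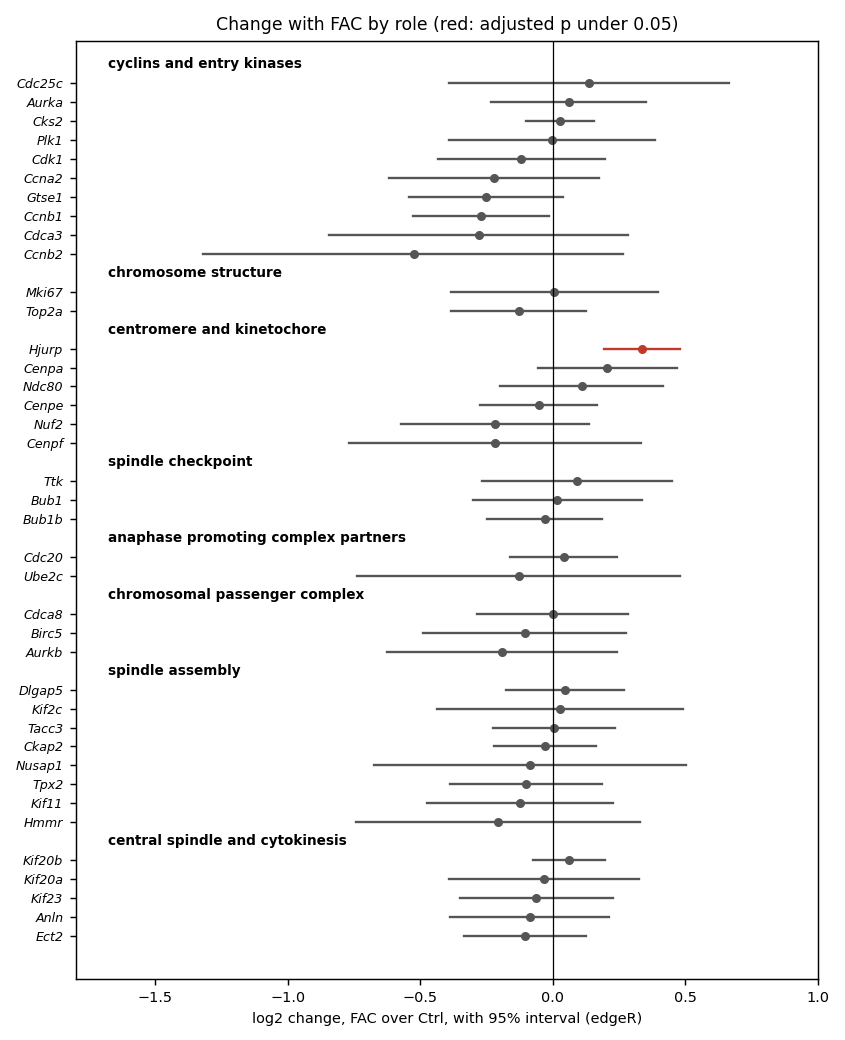
Log2 change of each mitosis gene, FAC over Ctrl, with its 95% interval from edgeR with group as the only term (4 libraries per group), by role. Hjurp, in red, is the only one with an adjusted p under 0.05, at 0.34, and the interval of Ccnb2 is the widest, running from -1.32 to 0.27.

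Among the 6 centromere and kinetochore genes, Hjurp (ENSMUSG00000044783) had 147, 167, 164 and 175 CPM (counts relative to the scaled library total) in FAC mice 1 to 4, against 118, 128, 123 and 147 CPM in Ctrl mice 1 to 4. The FAC value was higher in 4 of 4 mice, and the groups touched only where FAC mouse 1 lay at the level of Ctrl mouse 4. The means were 163 ± 11.8 CPM in FAC and 129 ± 12.8 CPM in Ctrl libraries (log2 change 0.34, SE 0.07, edgeR adjusted p = 0.0172, 95% interval 0.19 to 0.48). With the mouse as a block the edgeR adjusted p was 9.58e-05, and the change within a mouse was 0.32, 0.38, 0.41 and 0.25 on the log2 scale in mice 1 to 4. The call was lost without FAC 2, FAC 3, Ctrl 1, Ctrl 2 or Ctrl 3 (edgeR adjusted p = 0.0743, 0.0728, 0.0576, 0.0519 and 0.0599), without mouse 2 or mouse 3 (0.170 and 0.172), and in limma on log2(TPM + 1) (0.0626). Its direction held in all 21 alternatives run, with log2 changes of 0.295 to 0.415. The alternatives reuse the same libraries and Hjurp was singled out by its call. The constant direction and the order within mice are therefore no separate support.

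Cenpa, which encodes the centromeric histone that HJURP carries, had 4.35, 5.06, 5.16 and 4.58 CPM in FAC mice 1 to 4, against 4.04, 4.30, 4.28 and 3.98 CPM in Ctrl mice 1 to 4. FAC was higher in 4 of 4 mice, and all FAC libraries stood above all Ctrl libraries. Cenpa was the 1 gene of the 39 whose groups did not overlap in CPM, beside 11.1% of all tested genes. It did not pass the test (log2 change 0.21, SE 0.12, edgeR adjusted p = 0.395), and with the effective length as an offset its change was -0.03. Ndc80, a subunit of the complex that grips microtubules, had 8.96, 10.99, 9.53 and 12.8 CPM in FAC mice 1 to 4, against 7.81, 11.01, 8.53 and 11.7 CPM in Ctrl mice 1 to 4. Its groups overlapped, with mice 2 and 4 high in both (log2 change 0.11, SE 0.14, edgeR adjusted p = 0.739). Nuf2, its partner in that complex, had a log2 change of -0.22 (edgeR adjusted p = 0.521). The kinetochore motor gene Cenpe and the kinetochore protein gene Cenpf had log2 changes of -0.05 and -0.22 (edgeR adjusted p = 0.827 and 0.701).

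**Figure D3:**
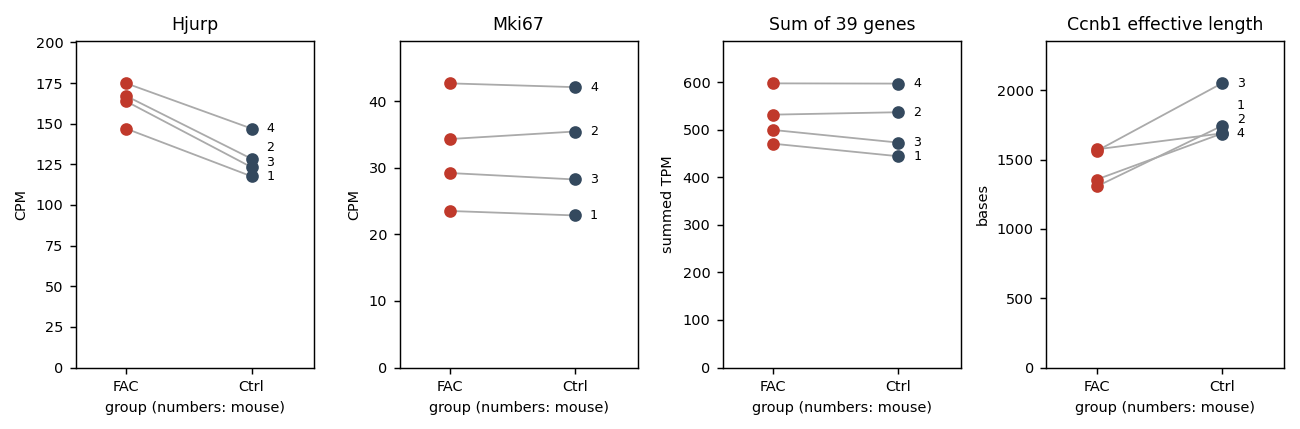
Values of FAC (left) and Ctrl (right) libraries joined by mouse, for Hjurp in CPM, Mki67 in CPM, the summed TPM of the 39 genes and the effective length of Ccnb1 in bases, on axes that start at 0. Hjurp is higher in FAC in 4 of 4 mice, Mki67 and the sum keep the order of the mice in both groups, and Ccnb1 is shorter in FAC in 4 of 4 mice.

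None of the 10 genes of cyclins and entry kinases passed the test, and their log2 changes had a median of -0.17. Ccnb1, the B-type cyclin that activates CDK1, had 7.88, 8.29, 7.95 and 9.51 CPM in FAC mice 1 to 4, against 8.52, 11.6, 8.93 and 11.4 CPM in Ctrl mice 1 to 4. FAC was lower in 4 of 4 mice while the groups overlapped (log2 change -0.27, SE 0.12, edgeR adjusted p = 0.245). Ccna2, the cyclin of S and G2 phase, had 19.4, 24.7, 22.3 and 34.6 CPM in FAC mice 1 to 4, against 20.7, 33.9, 25.04 and 37.3 CPM in Ctrl mice 1 to 4. It too was lower in FAC in 4 of 4 mice, and the mice of a group lay further apart than the groups (log2 change -0.22, SE 0.18, edgeR adjusted p = 0.564). That SE comes from the fit with group as the only term, in which spread among mice counts as error. Gtse1, which encodes a microtubule-binding protein of G2 phase, had 12.1, 15.04, 12.6 and 18.5 CPM in FAC mice 1 to 4, against 13.9, 18.6, 16.8 and 20.0 CPM in Ctrl mice 1 to 4. It was lower in FAC in 4 of 4 mice, with overlapping groups (log2 change -0.25, SE 0.14, edgeR adjusted p = 0.343). With the mouse as a block, Gtse1, Top2a and Ccna2 came nearest to the threshold after Hjurp, with edgeR adjusted p of 0.0550, 0.0610 and 0.0664. Their intervals of the log2 change in that fit ran from -0.412 to -0.097, -0.208 to -0.046 and -0.355 to -0.074. The interval of Ccnb1 ran from -0.468 to -0.056 (edgeR adjusted p = 0.115 with the block). These intervals were wholly negative but are not adjusted for the number of genes tested, and none of these genes was called.

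Cdk1 had 24.9, 30.04, 24.2 and 35.5 CPM in FAC mice 1 to 4, against 24.3, 33.2, 26.8 and 39.8 CPM in Ctrl mice 1 to 4. The groups overlapped and mouse 4 was highest in both (log2 change -0.12, SE 0.15, edgeR adjusted p = 0.715). Cks2 had 38.2, 37.9, 37.0 and 35.0 CPM in FAC mice 1 to 4, against 35.3, 40.0, 36.0 and 33.8 CPM in Ctrl mice 1 to 4. All 8 values lay close together, and its 95% interval ran from -0.10 to 0.16 on the log2 scale (edgeR adjusted p = 0.849). Ccnb2 had 0.667, 0.460, 0.654 and 0.430 CPM in FAC mice 1 to 4, against 0.595, 0.435, 0.956 and 1.23 CPM in Ctrl mice 1 to 4. Its change was the most negative of the 39, yet FAC was higher in 2 mice and lower in 2 (log2 change -0.53, SE 0.37, edgeR adjusted p = 0.483). Cdca3, which encodes a trigger of mitotic entry, had 2.16, 3.41, 2.20 and 3.33 CPM in FAC mice 1 to 4, against 1.90, 4.16, 2.70 and 4.61 CPM in Ctrl mice 1 to 4. Mice 2 and 4 were high in both groups (log2 change -0.28, SE 0.26, edgeR adjusted p = 0.619). Cdc25c, the phosphatase that activates CDK1, had 1.18, 1.56, 1.93 and 2.31 CPM in FAC mice 1 to 4, against 1.27, 1.55, 1.48 and 2.01 CPM in Ctrl mice 1 to 4. Mouse 4 was highest and mouse 1 lowest in both groups (log2 change 0.14, SE 0.25, edgeR adjusted p = 0.817). The mitotic kinase genes Plk1 and Aurka had log2 changes of -0.005 and 0.06 (edgeR adjusted p = 0.993 and 0.856).

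Neither of the 2 genes of chromosome structure passed. Top2a had 111, 132, 121 and 162 CPM in FAC mice 1 to 4, against 121, 156, 125 and 172 CPM in Ctrl mice 1 to 4. FAC was lower in 4 of 4 mice, by less than the mice of a group differed (log2 change -0.13, SE 0.12, edgeR adjusted p = 0.608). Mki67 had 23.5, 34.3, 29.2 and 42.7 CPM in FAC mice 1 to 4, against 22.8, 35.4, 28.2 and 42.1 CPM in Ctrl mice 1 to 4. The mice kept one order in both groups, mouse 4 highest and mouse 1 lowest, and the 95% interval of the log2 change ran from -0.39 to 0.40 (log2 change 0.005, SE 0.18, edgeR adjusted p = 0.993). With the mouse as a block that interval ran from -0.089 to 0.117.

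The checkpoint, anaphase and passenger genes also gave no call. Ttk, the kinase that starts the spindle checkpoint, had 8.04, 9.85, 8.43 and 12.1 CPM in FAC mice 1 to 4, against 6.46, 10.1, 8.07 and 11.2 CPM in Ctrl mice 1 to 4 (log2 change 0.09, SE 0.17, edgeR adjusted p = 0.818). Bub1b, which encodes the checkpoint protein BubR1, had 30.7, 34.1, 33.6 and 42.8 CPM in FAC mice 1 to 4, against 31.1, 37.0, 34.2 and 41.4 CPM in Ctrl mice 1 to 4 (log2 change -0.03, SE 0.10, edgeR adjusted p = 0.903). For both genes mouse 1 was lowest and mouse 4 highest in each group. Bub1, a checkpoint kinase gene, had a log2 change of 0.02 (edgeR adjusted p = 0.968). Cdc20, the activator of the anaphase promoting complex, and Ube2c, its ubiquitin-conjugating enzyme, had log2 changes of 0.04 and -0.13 (edgeR adjusted p = 0.864 and 0.853). Cdca8, the borealin subunit of the passenger complex, had 21.3, 20.6, 20.2 and 27.8 CPM in FAC mice 1 to 4, against 17.9, 25.6, 19.3 and 26.8 CPM in Ctrl mice 1 to 4. Its groups overlapped, and the 95% interval of the log2 change ran from -0.29 to 0.28 (edgeR adjusted p = 0.998). Birc5 (survivin) and Aurkb (Aurora B kinase), of the same complex, had log2 changes of -0.11 and -0.19 (edgeR adjusted p = 0.801 and 0.666).

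Among the 8 genes of spindle assembly the log2 changes ran from -0.21 (Hmmr) to 0.05 (Dlgap5), with edgeR adjusted p of 0.709 to 0.993. Tacc3, which encodes a spindle microtubule protein, had 20.3, 23.7, 23.8 and 27.0 CPM in FAC mice 1 to 4, against 19.9, 26.4, 20.9 and 27.0 CPM in Ctrl mice 1 to 4. The groups overlapped, and mouse 4 was highest in both (log2 change 0.003, SE 0.11, edgeR adjusted p = 0.993). Kif11, the kinesin that pushes spindle poles apart, and Tpx2, an activator of Aurora A, had log2 changes of -0.12 and -0.10. Kif2c, a kinesin that shortens microtubules, Ckap2, a microtubule-associated protein gene, and Nusap1 had log2 changes of 0.03, -0.03 and -0.09. The 5 genes of the central spindle and cytokinesis spanned -0.11 to 0.06, with edgeR adjusted p of 0.648 to 0.938. They were the kinesin genes Kif20a and Kif20b, Kif23 (a centralspindlin subunit), Anln (anillin) and Ect2 (an exchange factor of the cleavage furrow). Over all roles, 2 of the 39 were higher in FAC in 4 of 4 mice (Hjurp and Cenpa), a share of 5.13%, beside 14.7% of all tested genes. A further 6 were lower in FAC in 4 of 4 mice (Ccna2, Ccnb1, Gtse1, Top2a, Nuf2 and Hmmr), a share of 15.4%, beside 15.4% of all tested genes.

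The summed TPM of the 39 genes was 471, 532, 499.7 and 598 in FAC mice 1 to 4, against 444, 537, 473 and 597 in Ctrl mice 1 to 4. In both groups mouse 4 was highest, followed by mouse 2, mouse 3 and mouse 1. FAC over Ctrl within a mouse was 1.06, 0.991, 1.06 and 1.00 in mice 1 to 4, and the means were 525 ± 54.5 TPM in FAC and 513 ± 68.2 TPM in Ctrl libraries. Without Hjurp the means were 461 ± 50.4 TPM in FAC and 465 ± 63.6 TPM in Ctrl libraries, so that the groups differed by less than the spread of the mice either way.

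**Figure D4:**
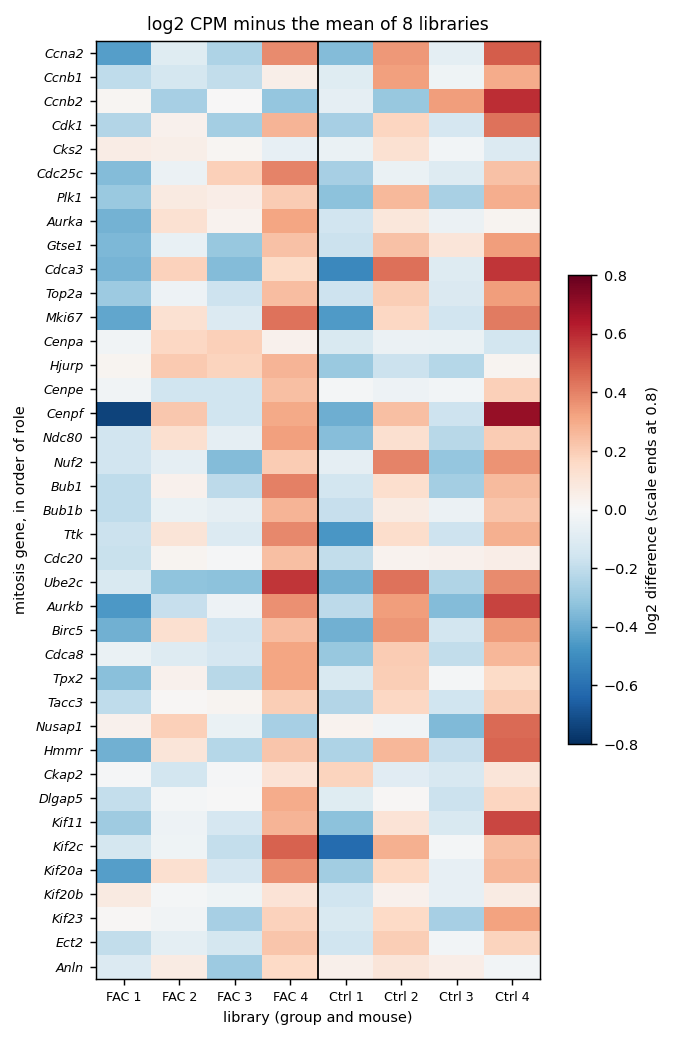
Log2 CPM of each mitosis gene minus its mean over the 8 libraries (colour scale from -0.8 to 0.8), with FAC libraries of mice 1 to 4 left of Ctrl libraries of mice 1 to 4 and genes in order of role. Mouse 4 is above the mean and mouse 1 below it for most genes in both groups, while Hjurp and Cenpa are higher in FAC in 4 of 4 mice.

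The 39 mitosis genes varied with the mouse by a larger share than tested genes as a whole. Mouse 4 had the highest CPM in both groups for 24 of the 39 genes (61.5%), beside 9.91% of all tested genes. Mouse 1 had the lowest for 25 of the 39 in FAC (64.1%, beside 29.8% of all tested genes) and for 27 in Ctrl cultures (69.2%, beside 26.6%). In the edgeR fit with mouse and treatment, a test added after the data were seen, 10 of the 39 genes (25.6%) differed among mice at an adjusted p under 0.05, beside 1.26% of all tested genes. The 10 were Mki67, Top2a, Ccna2, Cdk1, Kif11, Cenpf, Bub1b, Birc5, Bub1 and Kif20a, with edgeR adjusted p from 1.20e-04 (Mki67) to 0.0411 (Bub1 and Kif20a). The mouse accounted for a median of 85.5% of the variation of log2 CPM over the 39 genes and the treatment for 4.19%, beside 42.9% and 16.3% over all tested genes. For Mki67 the mouse accounted for 99.6%. Hjurp and Cenpa were the 2 genes of the 39 for which the treatment accounted for more than the mouse (71.5% and 61.7% for the treatment). That is a share of 5.13%, beside 29.9% of all tested genes. The mouse has 4 levels and the treatment 2, so noise alone gives the mouse the larger share on average, among all tested genes too. At the median of the 39 genes the highest mouse was 1.49-fold the lowest in FAC and 1.49-fold in Ctrl cultures, beside 1.20-fold in FAC and 1.18-fold in Ctrl cultures over all tested genes.

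The count of genes that differed among mice rested on single mice and on the scale. Without mouse 4 it was 2 of 39 (Top2a and Mki67), beside 0.326% of all tested genes, and without mouse 1 it was 4 (Ccna2, Cdk1, Top2a and Mki67), beside 0.513%. Without mouse 2 it was 17, beside 2.80% of all tested genes, and without mouse 3 it was 8, beside 0.671%. With the effective length as an offset it was 1 (Top2a), beside 0.149%, and limma on log2(TPM + 1) called 0 of 39, beside 0.0598%. Total counts in mice 1 to 4 were 31428728, 32368377, 28700514 and 25410267 in FAC libraries and 25478716, 37350609, 30464577 and 28509023 in Ctrl libraries. Mouse 4 had the lowest total in FAC and mouse 1 the lowest in Ctrl libraries, and the part of depth in these differences was not tested. The animal, its cell sort and the handling of its cultures cannot be told apart.

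**Figure D5:**
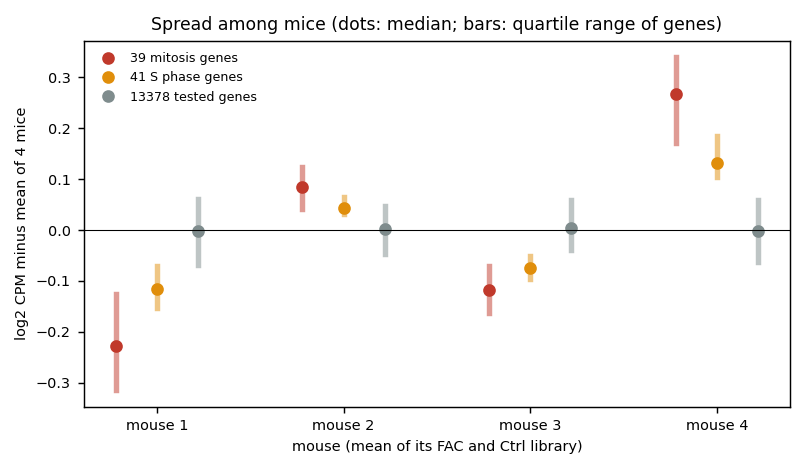
Log2 CPM of each mouse (mean of its FAC and Ctrl library) minus the mean of the 4 mice, as the median (dot) and quartile range (bar) over the 39 mitosis genes, 41 S phase genes and 13378 tested genes. The mitosis genes run from -0.23 in mouse 1 to 0.27 in mouse 4 and the S phase genes from -0.12 to 0.13, while all genes stay near 0.

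S phase genes had the same order of mice and smaller offsets. The median offset from the mean of the mice was -0.23, 0.09, -0.12 and 0.27 on the log2 scale for the mitosis genes in mice 1 to 4, and -0.12, 0.04, -0.07 and 0.13 for the 41 S phase genes. The difference between these lists was not tested. The summed TPM of the S phase genes was 4876 ± 316 in FAC and 4901 ± 338 in Ctrl libraries, against which the mitosis genes summed to 525 ± 54.5 in FAC and 513 ± 68.2 in Ctrl libraries. Of the 41 S phase genes, edgeR called 0 between FAC and Ctrl, beside 3.27% of all tested genes. At an unadjusted edgeR p under 0.05 there was 1, beside 18.4% of all tested genes. Among mice 11 of the 41 differed (26.8%), beside 25.6% of the mitosis genes and 1.26% of all tested genes. Foxm1, the transcription factor that activates G2 and M genes, was picked after its values were seen, and had 10.6, 22.1, 14.0 and 25.2 CPM in FAC mice 1 to 4, against 9.75, 20.8, 12.3 and 26.8 CPM in Ctrl mice 1 to 4. Mouse 4 was highest and mouse 1 lowest in both groups, as for Mki67, with an edgeR adjusted p of 4.75e-05 among mice and 0.966 between FAC and Ctrl.

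Further genes of mitosis, from 5 lists, gave 1 call between FAC and Ctrl among 121 tested genes (0.826%, beside 3.27% of all tested genes). The lists held 15 tested genes of mitotic entry and transcription, 37 of the kinetochore and checkpoint, 32 of the spindle and cytokinesis, 19 of condensin, cohesin and separase, and 18 of the anaphase promoting complex. Their median log2 changes were -0.04, -0.03, -0.06, -0.03 and -0.04 in that order. Among mice, 3, 1, 7, 5 and 0 genes of these lists differed in the same order (20%, 2.70%, 21.9%, 26.3% and 0%). The share was 25.6% for the 39 genes and 1.26% for all tested genes, so it was uneven over genes of mitosis. Ube2s, the ubiquitin-conjugating enzyme that extends chains for the anaphase promoting complex, fell, with 132, 140.0, 143 and 147 CPM in FAC mice 1 to 4, against 154, 162, 155 and 161 CPM in Ctrl mice 1 to 4. All FAC libraries lay below all Ctrl libraries, where 11.1% of all tested genes did not overlap in either direction. FAC was lower in 4 of 4 mice, beside 15.4% of all tested genes (log2 change -0.17, SE 0.04, edgeR adjusted p = 0.0418). Ube2s is named because it was called, so this order of the libraries is no separate support. The call held in 7 of 21 alternatives and was lost in 14, with log2 changes of -0.19 to -0.08 and adjusted p of 0.00400 to 0.410 over the 21. It was lost without any single library other than FAC 4 (edgeR adjusted p = 0.0590 to 0.131), without mouse 1, 2 or 3 (0.0885, 0.288 and 0.201), with the effective length as an offset (0.250), and in limma on log2(TPM + 1) (0.410) and on the signal (0.232). With the mouse as a block these lists and the S phase list gave 5 calls in place of 1 (3.09% of their tested genes, beside 6.87% of all), and with the block and the length offset together 1, which was not Ube2s. Beside Ube2s (edgeR adjusted p = 0.0111), Pkmyt1, a kinase that restrains CDK1, was higher in FAC by 0.30 on the log2 scale (edgeR adjusted p = 0.00378 with the block and 0.121 without). The others were Rbl2, the p130 repressor of the DREAM complex (0.26, edgeR adjusted p = 0.0425), Cenpt, a kinetochore gene (0.28, edgeR adjusted p = 0.0367), and Pole, a DNA polymerase of S phase (0.14, edgeR adjusted p = 0.0353). All 4 were higher in FAC in 4 of 4 mice, beside 14.7% of all tested genes. They are named because the block fit called them, so the shared direction is no separate support.

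Transcript length entered some of these values. The effective length of a gene depends on how its reads were divided among transcripts, and its highest library exceeded its lowest by a median of 1.22-fold over the 39 genes, beside 1.10-fold over all tested genes. For Ccnb1 it was 1306, 1574, 1562 and 1356 bases in FAC mice 1 to 4, against 1743, 1689, 2050 and 1688 bases in Ctrl mice 1 to 4. Every FAC library was shorter than every Ctrl library, and with the length as an offset the log2 change of Ccnb1 was 0.02 in place of -0.27. Cdc25c was also shorter in all FAC libraries (956 to 1639 bases in FAC and 1668 to 1834 bases in Ctrl), and its log2 change with the offset was 0.43 (edgeR adjusted p = 0.402). Birc5 was longer in all FAC libraries (924 to 1102 bases in FAC and 855 to 921 bases in Ctrl), and its log2 change with the offset was -0.25. These 3 of the 39 (7.69%) did not overlap in length between groups, beside 3.31% of all tested genes. In all, 11 of the 39 changes turned sign with the offset, none of them called, while Hjurp kept its direction and its call (0.38, edgeR adjusted p = 0.0445). Values per transcript were not analysed here. Counts were not whole in at least 1 library for 9 of the 39 genes (Ccna2, Ccnb1, Tacc3, Nusap1, Kif20a, Cks2, Plk1, Top2a and Kif11), so the division of their reads with other genes is uncertain.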

How the data were processed

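Per the labels, total RNA (250 ng) from 4 FAC and 4 Ctrl cultures was made into stranded mRNA libraries. The sources used here do not give the strand setting of the counting. GRCm39 is the build in the submitters' processing notes, which list as tools RSEM 1.3.1, STAR 2.7.6a, DESeq2 1.26.0, DESeq, R 3.6.3 and FastQC without saying what each did. Per the file headers, the authors deposited RSEM gene files with expected counts (unscaled estimated counts), TPM and effective lengths in bases. The authors also deposited a table of a normalised signal. Between 88.6% and 89.4% of genes per library held expected counts within 0.005 of a whole number.

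Expected counts were rounded and tested with edgeR 4.0.16 (TMM factors, quasi-likelihood test, group as the only term, filterByExpr with a minimum count of 10 and total of 15, Benjamini-Hochberg adjustment), in R 4.3.3, after tests on simulated data. CPM are TMM-scaled. Alternatives were other factors, no filter, DESeq2 1.42.0, limma 3.58.1 on log2(TPM + 1) and on the log2 signal, an effective length offset, the mouse as a replicate block, and each library or mouse left out. The mouse numbers pair cultures of the same mouse per the labels. Over all tested genes the deviations of the pairs correlated at 0.205, 0.0568, 0.107 and 0.196, and those of unlike mice at -0.238 to 0.0479. Over the mitosis genes the pairs correlated at 0.549, 0.192, 0.331 and 0.301, while FAC mouse 4 and Ctrl mouse 2 correlated at 0.624. No pair of libraries within a group matched within counting noise. One count was worth 0.0272 to 0.0397 CPM, and counting error is only part of the spread.

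Values per library are given for mitosis genes called in either edgeR fit, the 8 of highest TPM and the 5 most positive and 5 most negative changes. Listed genes are named where called without the block (Ube2s). Mki67, Foxm1 and the listed genes called only with the block were added after their values were seen, as was the fit with block and length offset together. The 39 genes and the lists were chosen with earlier results of these data known. No set test was run.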

Additional observations from a re-analysis of the deposited data

Results flagged for a closer look

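Over 80 groups of 4 libraries checked, 3 had 1 library that stood apart from the other 3, and chance gives about 1 in 20. Cdca8, the borealin gene, had 27.77 CPM in FAC mouse 4, above the other FAC libraries. Cenpe, the kinetochore motor gene, had 14.57 CPM in Ctrl mouse 4, above the other Ctrl libraries. Cdc20, the anaphase activator gene, had 14.07 CPM in Ctrl mouse 1, below the other Ctrl libraries.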

How the results depend on the processing

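Between FAC and Ctrl, edgeR called 438 genes. The count was 736 without the filter, 744 in DESeq2, 144 in limma on log2(TPM + 1) (112 higher and 32 lower, 77.8% higher in place of 66.4%), 156 in limma on the signal, 187 with the effective length offset, 919 with the replicate block and 217 with the block and the offset together. Leaving out libraries or mice gave 83 to 549. Of the 39 mitosis genes 1 was called, 0 in limma on log2(TPM + 1), and 0 to 1 with libraries or mice left out. The replicate block changed no call among the 39. The 16 other mitosis genes with values per library were called in 0 of 336 alternatives. The listed genes gave 1 call, 3 without the filter, 0 in limma on log2(TPM + 1), 0 in limma on the signal, 0 with the offset, 5 with the replicate block, 1 with the block and the offset together, and 0 to 2 with libraries or mice left out. The median log2 change of the 39 was below 0 in 16 of 23 settings and above 0 in 7, between -0.15 and 0.05. The summed TPM of FAC over Ctrl was 1.02, and 0.976 to 1.08 with single libraries left out. For differences among mice, 10 of the 39 and 169 of all genes were called, 24 and 947 without the filter, 1 and 20 with the offset, 0 and 8 in limma on log2(TPM + 1), and 2 to 17 and 44 to 375 with mice left out. The cause of these shifts was not tested. Genes such as Ccnb2, with 11 to 21 counts in FAC and 15 to 35 in Ctrl libraries, limit what can be detected at this depth.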
